A study of Mus musculus with 24 samples.

Results

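The genes described here encode the hallmarks of plasma cells and the machinery with which they fold and secrete antibody. The 10 genes were given by name: the antibody joining chain Jchain, the secretory and surface proteins Mzb1 and Sdc1, the transcription factors Xbp1, Irf4 and Prdm1, and Herpud1, Hspa5, Pdia4 and Dnajb9 of the endoplasmic reticulum (ER). They are 10 of 55414 genes in the RNA tables, and all were found by symbol. Bulk RNA-seq of spleens from BALB/c mice gave 4 libraries titled CT-26 and 4 titled control. CT-26 is a colon carcinoma line of that mouse strain, and per the protocol its cells were injected into the right side of mice aged 8 weeks. The treatment labels contradict the titles: the libraries titled CT-26 are labelled as healthy controls, and those titled control as injected with CT-26 cells. Both fields divide the libraries in the same way, so the sets keep their titles here, no direction stands for tumour against healthy, and each difference is titled CT-26 minus titled control. All 8 libraries are labelled as splenocytes, the cells of the spleen. The labels do not say that each library came from its own mouse, so the p-values measure the spread between these libraries, which may be technical.

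Plasma cells are B cells that have turned into antibody factories. Irf4 and Prdm1 (the gene of Blimp-1) drive this change and shut down the B cell programme, and Xbp1 then enlarges the ER. When unfolded proteins build up in the ER, the sensor IRE1 splices Xbp1 mRNA, ATF6 is cleaved into a transcription factor, and PERK slows translation and raises ATF4. These branches make up the unfolded protein response, which raises chaperones and proteins of ER-associated degradation. Every nucleated cell has this response, so of the 10 genes the 4 of the ER are the least tied to plasma cells. Gene counts do not tell spliced Xbp1 from unspliced Xbp1.

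The titled CT-26 libraries held between 735298 and 1152550 counts and the titled control libraries between 907109 and 1970950. Mitochondrial genes took between 32.0% and 41.1% of the counts in the titled CT-26 set, against 46.2% to 66.1% in the titled control set, with titled control 1 the highest. All 12 B cell and 10 macrophage markers were detected in both sets, which cannot tell spleen from another tissue that holds these cells. The sets differed widely in cell markers. Of 12 B cell markers 11 fell, with a summed level of 455 to 902 CPM (counts per 1000000, scaled by TMM, the trimmed mean of M-values) in titled CT-26 libraries and 1923 to 2956 CPM in titled control libraries. Of 5 tested markers of plasmacytoid dendritic cells, which also make much secretory protein, 3 fell (summed 63.4 to 164 CPM in titled CT-26 and 165 to 296 CPM in titled control). Each of the 9 tested T cell markers and 7 of 10 macrophage markers fell, while all 11 tested markers of dividing cells rose (summed 4046 to 6068 CPM in titled CT-26 and 938 to 1225 CPM in titled control). The 8 tested markers of neutrophil precursors rose as well, as did 9 of 10 erythroid markers. In bulk RNA, fewer cells of a type and less RNA per cell cannot be told apart, and the part of these shifts in the results below was not tested.

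Of the 10 genes, 7 had enough counts for a test. Herpud1 rose in the titled CT-26 libraries, while Jchain, Dnajb9 and Pdia4 fell, and Xbp1, Irf4 and Hspa5 did not pass. Thus 1 of 7 was called higher and 3 of 7 lower by edgeR's quasi-likelihood test (Benjamini-Hochberg adjusted p under 0.05), where 21.2% of all 6408 tested genes were called higher and 21.6% lower. With 7 genes, neither share is read as particular to them. The median log2 fold change of the 7 was -0.54, against -0.02 for all genes. Levels of the titled CT-26 and titled control libraries did not overlap for 2 of the 7, Jchain and Dnajb9, as for 38.5% of all tested genes. The Herpud1 call was kept under all 16 alternatives that were tried. None of the other 3 calls was kept under all of them: with library totals in place of TMM, a scaling under which log2 fold changes stood higher by 0.37 at the median gene (1936 genes higher and 725 lower, against 1359 and 1381), 0 of the 7 were lower and Hspa5 joined Herpud1 as higher.

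**Figure D1:**
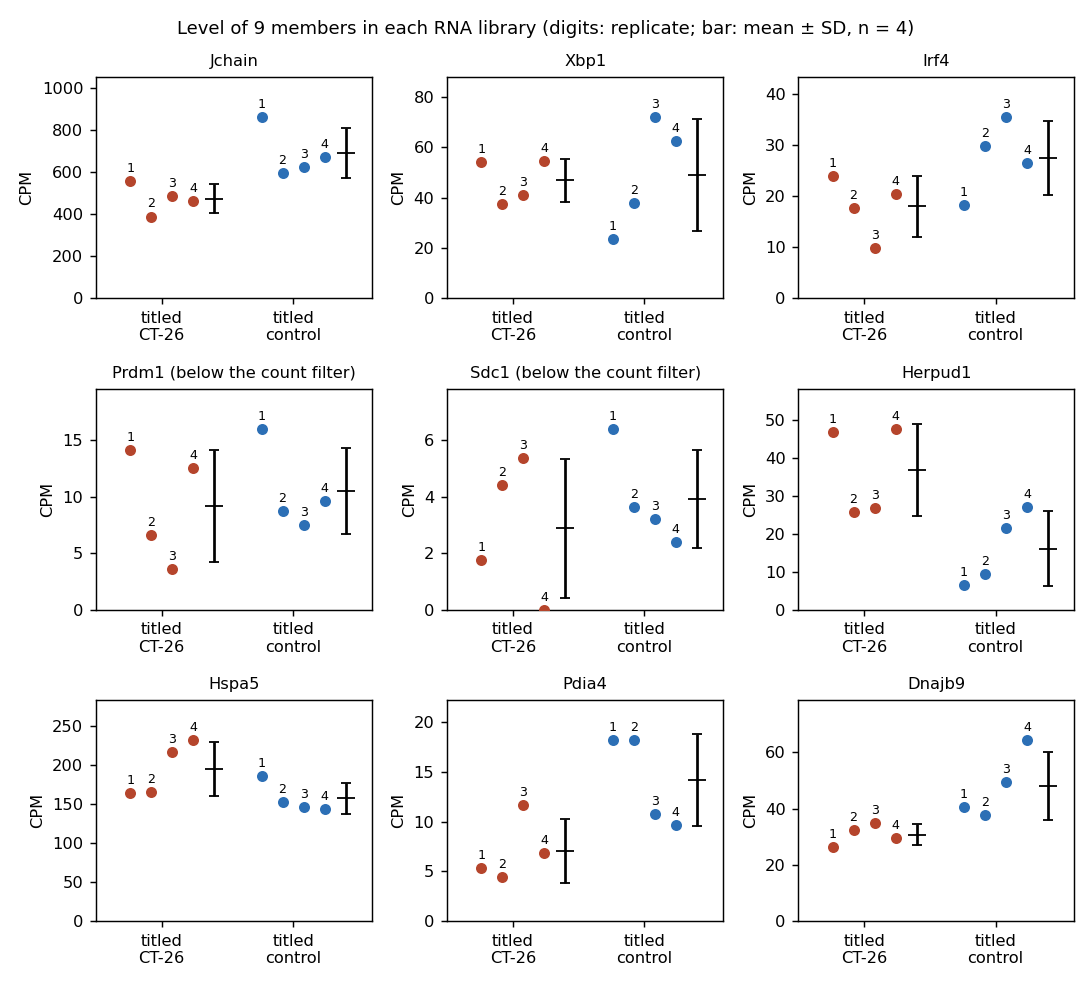
Level in CPM (vertical axes, each from 0) of 9 genes in the 4 titled CT-26 libraries (red, left in each panel) and the 4 titled control libraries (blue, right), with the mean and SD of each set as black bars. The sets stand apart for Jchain and Dnajb9, and all 4 titled CT-26 values of Herpud1 lie above 3 of the 4 titled control values. Mzb1, listed at 0 throughout, is not drawn.

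Jchain (ENSMUSG00000067149, chromosome 5, 88667668 to 88675750, minus strand, GRCm39) encodes the joining chain that links IgA and IgM into polymers, and it is made by antibody-secreting cells. Its level was 559.7, 389.7, 485 and 466 CPM in titled CT-26 libraries 1 to 4, against 864, 599, 626 and 675 CPM in titled control libraries 1 to 4. Every titled CT-26 library lay below every titled control library, although titled CT-26 1 and titled control 2 were close. Means were 475 ± 69.9 CPM in titled CT-26 and 691 ± 119.5 CPM in titled control (SD, n = 4 each), and Jchain was lower by edgeR (log2 fold change -0.54, SE 0.21, adjusted p 0.0368). The call ended without titled control 1 (log2 fold change -0.40, adjusted p 0.146) and on leaving out titled control 3 or any titled CT-26 library but 1 (-0.56 to -0.47, edgeR adjusted p 0.0590 to 0.106). Within sequencing lane 1, which held 2 titled CT-26 libraries and 1 titled control library, the difference in log2 CPM was -0.56, and within lane 2, with 1 and 2 libraries, it was -0.45.

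Sdc1 (chromosome 12, 8821323 to 8843715, plus strand) encodes syndecan 1 (CD138), the surface proteoglycan by which plasma cells are sorted. It had 2, 6, 6 and 0 counts in titled CT-26 libraries 1 to 4 and 6, 5, 3 and 4 in titled control libraries 1 to 4, too few for the test. The 0 counts of titled CT-26 4 allow a level of up to 3.41 CPM (3 counts), a limit that covers counting error only. No difference in Sdc1 was detectable at this depth. Mzb1 (chromosome 18, 35780320 to 35782420, minus strand, GRCm39) encodes an ER cochaperone of marginal zone B cells and plasma cells, and it was listed at 0 counts in all 8 libraries. In the gene models of the deposited tables, 695 of its 1215 exonic bases are also exonic in a second gene on the same strand, listed as SPATA24 (ENSMUSG00000117874, 35780321 to 35795216), which had 0 counts too. The headers record no option that counts a fragment falling in several genes. The other 520 bases had no count either, and no level of Mzb1 is read from these tables. None of the other 9 genes shared more than 14 exonic bases with another gene.

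Xbp1 (chromosome 11, 5470659 to 5475893, plus strand) encodes the transcription factor of the IRE1 branch. Its level was 53.9, 37.6, 41.1 and 54.5 CPM in titled CT-26 libraries 1 to 4 and 23.5, 37.7, 72.0 and 62.5 CPM in titled control libraries 1 to 4. The titled control values spread about the titled CT-26 values on both sides. Means were 46.8 ± 8.71 CPM in titled CT-26 and 48.9 ± 22.3 CPM in titled control (SD, n = 4 each), and the log2 fold change was -0.08 (SE 0.28, edgeR adjusted p 0.849). The sign was not settled: it was positive in 5 of 16 alternatives, 4 of them under the same TMM scaling, and the value of 0.25 with library totals lies below the median of 0.35 that all genes had there.

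Irf4 (chromosome 13, 30933209 to 30950959, plus strand), which directs plasma cell formation and also acts in activated T cells, had 23.9, 17.7, 9.83 and 20.4 CPM in titled CT-26 libraries 1 to 4, against 18.2, 29.7, 35.4 and 26.5 CPM in titled control libraries 1 to 4. The sets overlapped because titled control 1 was low. By edgeR its log2 fold change was -0.62 (SE 0.31, adjusted p 0.110), between -0.79 and -0.27 in all alternatives. Prdm1 (chromosome 10, 44313173 to 44404497, minus strand) encodes Blimp-1, the repressor that ends the B cell programme. It had 16, 9, 4 and 11 counts in titled CT-26 libraries 1 to 4 and 15, 12, 7 and 16 in titled control libraries 1 to 4, and was below the filter. Fitted without a filter, Prdm1 and Sdc1 had log2 fold changes of -0.12 ± 0.44 and -0.23 ± 0.72 (SE; edgeR adjusted p 0.879 and 0.844). The transcription factors of the plasma cell programme thus showed no difference that passed the test, with standard errors of 0.28 to 0.44 on the log2 scale.

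The 4 ER genes are textbook targets of the unfolded protein response, and their promoters are shown because 3 of the 4 passed the test, in different directions. Given are the 250 bases before each gene's start, 5′ to 3′ on the gene's strand, from RefSeq on GRCm38.p6, a build other than that of the gene positions in the text, with motif matches in capitals.
Herpud1, chr8:94386179-94386428 (plus strand): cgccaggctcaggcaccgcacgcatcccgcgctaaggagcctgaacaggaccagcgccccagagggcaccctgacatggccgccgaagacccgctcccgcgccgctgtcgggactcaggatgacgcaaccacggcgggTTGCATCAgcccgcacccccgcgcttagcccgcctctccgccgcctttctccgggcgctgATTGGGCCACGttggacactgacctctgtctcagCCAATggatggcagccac
Dnajb9, chr12:44210069-44210318 (minus strand): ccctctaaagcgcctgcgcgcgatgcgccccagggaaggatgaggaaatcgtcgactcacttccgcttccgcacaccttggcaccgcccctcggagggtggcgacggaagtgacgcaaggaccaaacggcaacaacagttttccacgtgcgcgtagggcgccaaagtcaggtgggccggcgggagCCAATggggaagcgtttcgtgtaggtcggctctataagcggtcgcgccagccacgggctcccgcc
Pdia4, chr6:47813513-47813762 (minus strand): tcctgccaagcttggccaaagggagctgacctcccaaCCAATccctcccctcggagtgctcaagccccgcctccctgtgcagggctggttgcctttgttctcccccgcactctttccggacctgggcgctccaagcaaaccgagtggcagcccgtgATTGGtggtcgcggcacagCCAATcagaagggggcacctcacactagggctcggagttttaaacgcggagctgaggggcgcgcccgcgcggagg
Hspa5, chr2:34771840-34772089 (plus strand): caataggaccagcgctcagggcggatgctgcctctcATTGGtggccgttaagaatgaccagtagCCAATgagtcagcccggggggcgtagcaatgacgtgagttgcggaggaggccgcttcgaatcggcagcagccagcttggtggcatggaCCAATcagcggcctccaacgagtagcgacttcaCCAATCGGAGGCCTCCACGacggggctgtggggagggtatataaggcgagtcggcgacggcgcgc
The ER stress element (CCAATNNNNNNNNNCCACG, bound by ATF6 and XBP1 together with NF-Y) matched only Hspa5 among the 9 promoters searched, at -65 to -47, and matched 0.130% of 27025 gene promoters. ERSE-II (ATTGGNCCACG) matched only Herpud1, at -52 to -42, and 0.0370% of all promoters. Herpud1 also held the ATF4-bound element TTGCATCA at -112 to -105, found in 0.918% of promoters. TGACGTGG, the core of the XBP1-bound element, was in none of the 9 and in 0.603% of all promoters. Pdia4 and Dnajb9 matched only the CCAAT box, which overlaps both ER stress elements and was in 37.5% of promoters. Matches on either strand were counted, and a match describes letters, not binding.

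The ER genes did not move together. Herpud1 (chromosome 8, 95113066 to 95122005, plus strand) encodes a membrane protein of the ER that aids the degradation of misfolded proteins. It had 46.9, 25.8, 26.8 and 47.7 CPM in titled CT-26 libraries 1 to 4, against 6.41, 9.42, 21.5 and 27.1 CPM in titled control libraries 1 to 4. Titled control 1 and 2 were lowest, from 6 and 13 counts, and only titled control 4 reached the range of the titled CT-26 set. Means were 36.8 ± 12.1 CPM in titled CT-26 and 16.1 ± 9.79 CPM in titled control (SD, n = 4 each), and Herpud1 was higher by edgeR (log2 fold change 1.14, SE 0.35, or 2.20-fold, adjusted p 0.0107). Leaving out 1 library gave log2 fold changes between 0.92 and 1.57, the lowest without titled control 1 and the highest without titled control 4, and adjusted p between 0.00107 and 0.0489. Within lanes 1 and 2 the difference in log2 CPM was 0.70 and 1.78.

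Hspa5 (chromosome 2, 34661982 to 34667559, plus strand) encodes BiP, the main ER chaperone, which binds heavy chains before they meet a light chain. It had 164, 166, 216 and 232 CPM in titled CT-26 libraries 1 to 4, against 186, 153, 146 and 144 CPM in titled control libraries 1 to 4. Titled CT-26 3 and 4 lay above all titled control libraries, and the other 2 lay within their range. Means were 195 ± 34.6 CPM in titled CT-26 and 157 ± 19.5 CPM in titled control (SD, n = 4 each). The log2 fold change was 0.31 ± 0.20 (SE, edgeR adjusted p 0.231), and 0.69 (edgeR adjusted p 0.0234) with library totals in place of TMM.

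Dnajb9 (chromosome 12, 44252342 to 44257109, minus strand) encodes ERdj4, a cochaperone of BiP that also represses IRE1. It had 26.5, 32.4, 34.9 and 29.5 CPM in titled CT-26 libraries 1 to 4, against 40.6, 37.7, 49.4 and 64.4 CPM in titled control libraries 1 to 4. The sets did not overlap, with titled control 4 the farthest from the rest. By edgeR its log2 fold change was -0.64 (SE 0.25, adjusted p 0.0417), from means of 30.8 ± 3.61 CPM in titled CT-26 and 48.0 ± 12.0 CPM in titled control (SD, n = 4 each). The call ended when titled control 3, titled control 4 or any titled CT-26 library but 3 was left out (log2 fold change -0.69 to -0.45, edgeR adjusted p 0.0551 to 0.173). It ended too with the sequencing lane as a factor (-0.83, adjusted p 0.0597) and by DESeq2 (-0.64, adjusted p 0.0594). Titled CT-26 3 and titled control 2 were each alone in a lane. The lane fit thus compared the sets within lanes 1 and 2 only, with fewer libraries than the main fit. Pdia4 (chromosome 6, 47773075 to 47790364, minus strand) encodes the disulfide isomerase ERp72. Its level was low, at 5.31, 4.42, 11.6 and 6.81 CPM in titled CT-26 libraries 1 to 4, from 6, 6, 13 and 6 counts, against 18.2, 18.1, 10.7 and 9.62 CPM in titled control libraries 1 to 4, from 17, 25, 10 and 16 counts. Titled CT-26 3 lay above titled control 3 and 4, so the sets overlapped. By edgeR it was lower by a log2 fold change of -1.0 (SE 0.41, adjusted p 0.0486), a call that ended when titled control 1, titled control 2 or any titled CT-26 library but 3 was left out (-1.01 to -0.83, edgeR adjusted p 0.0768 to 0.149) and by DESeq2 (-1.01, adjusted p 0.0774). Within lanes 1 and 2 the difference in log2 CPM was -0.67 and -0.93 for Dnajb9 and -0.91 and -1.24 for Pdia4. With the lane as a factor the calls of Jchain and Pdia4 ended as well (log2 fold change -0.50 and -1.14, edgeR adjusted p 0.153 and 0.120).

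**Figure D2:**
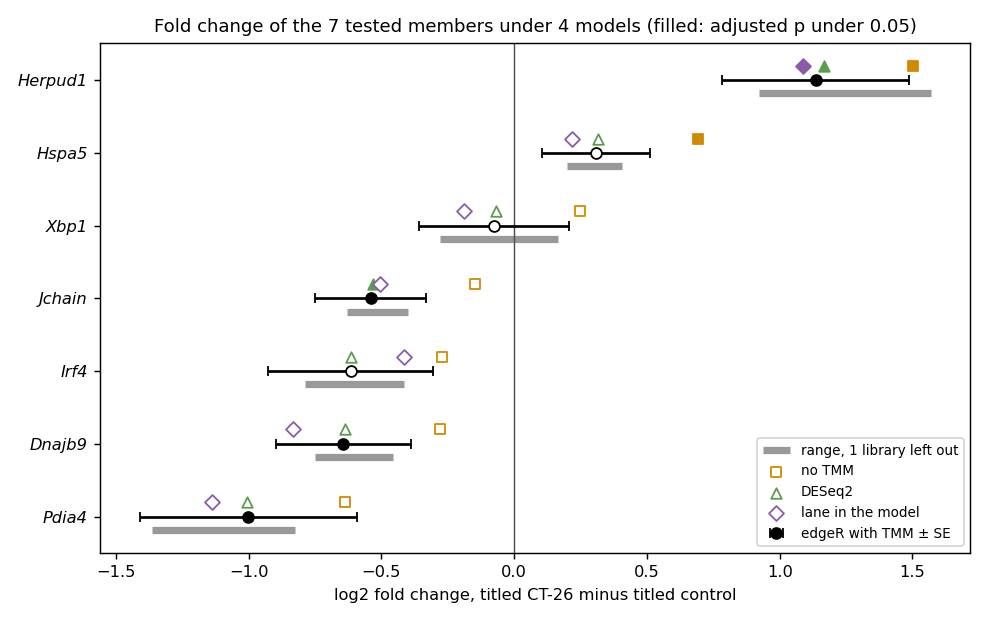
Log2 fold change, titled CT-26 minus titled control, of the 7 tested genes (rows) by edgeR with TMM (circles, bars are SE) and 3 other models, with the range when 1 library is left out as a grey bar; filled symbols have an adjusted p under 0.05. Herpud1 lies right of 0 and is filled in every model drawn, while the open symbols of Jchain, Pdia4 and Dnajb9 show where their calls ended.

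To rank genes, levels were divided by the kilobases of exon in each gene model. Transcript length and evenness of coverage were not checked, so the order of genes is approximate. Jchain stood at the top with 189 CPM per kb in titled CT-26 libraries and 275 CPM per kb in titled control libraries. Hspa5 followed with 46.0 and 37.2 CPM per kb in the titled CT-26 and titled control sets. In the titled CT-26 set came Herpud1 (15.8 ± 5.20 CPM per kb), Xbp1 (14.4 ± 2.68) and Dnajb9 (12.1 ± 1.42), which did not differ beyond their spread (SD, n = 4). In the titled control set the same 3 were ordered Dnajb9 (18.8 ± 4.70), Xbp1 (15.1 ± 6.86) and Herpud1 (6.90 ± 4.20). Irf4, Pdia4, Prdm1 and Sdc1 lay below, between 3.66 and 0.758 CPM per kb in titled CT-26 and between 5.90 and 1.03 CPM per kb in titled control.

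Ratios between genes of the same library do not depend on how libraries are scaled. The log2 ratio of Herpud1 to Dnajb9 was 0.81, -0.33, -0.37 and 0.68 in titled CT-26 libraries 1 to 4, against -2.57, -1.96, -1.18 and -1.24 in titled control libraries 1 to 4. The sets did not overlap, and their means differed by 1.94 on the log2 scale. That gave an exact two-sided permutation p of 0.0286, the smallest that the 70 assignments of 4 against 4 libraries allow, and 0.0714 after adjustment over the 10 ratios tested. Herpud1 against Hspa5 differed by 1.03 and against Pdia4 by 2.32, with overlapping sets (exact permutation p 0.171 and 0.0571, adjusted 0.245 and 0.114). Within lanes 1 and 2 the difference was 0.27 and 1.77 for Herpud1 to Hspa5, 1.36 and 2.71 for Herpud1 to Dnajb9, and 1.61 and 3.02 for Herpud1 to Pdia4.

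Cd79a, the signal chain of the B cell receptor, itself fell (log2 fold change -1.86), where the median of all tested genes was -0.02. Against Cd79a, Jchain, Xbp1 and Irf4 had a higher ratio in every titled CT-26 library than in any titled control library. A gene with no change of its own would also have a higher ratio to Cd79a. These 3 ratios are thus not read as particular to plasma cell genes. The log2 ratio of Jchain to Cd79a averaged 3.70 ± 0.20 in titled CT-26 and 2.37 ± 0.28 in titled control (SD, n = 4 each). Xbp1 to Cd79a averaged 0.36 ± 0.18 in titled CT-26 and -1.56 ± 0.74 in titled control. Irf4 to Cd79a averaged -1.04 ± 0.46 in titled CT-26 and -2.29 ± 0.37 in titled control. Each of these 3 ratios had an exact permutation p of 0.0286, or 0.0714 adjusted. Within lanes 1 and 2 the difference was 1.6 and 0.89 for Jchain, 1.49 and 1.82 for Xbp1, and 1.27 and 1.46 for Irf4. The Jchain to Igkc ratio differed by -0.04, far less than its spread of 0.28 and 0.22 (SD, titled CT-26 and titled control; exact permutation p 0.886). Jchain to Xbp1, Irf4 to Xbp1 and Xbp1 to Hspa5 differed by -0.58, -0.67 and -0.25, with overlapping sets and exact permutation p of 0.114 to 0.6. None of the 10 ratios passed 0.05 after adjustment, which 4 against 4 libraries could reach only with more ratios at the smallest p.

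**Figure D3:**
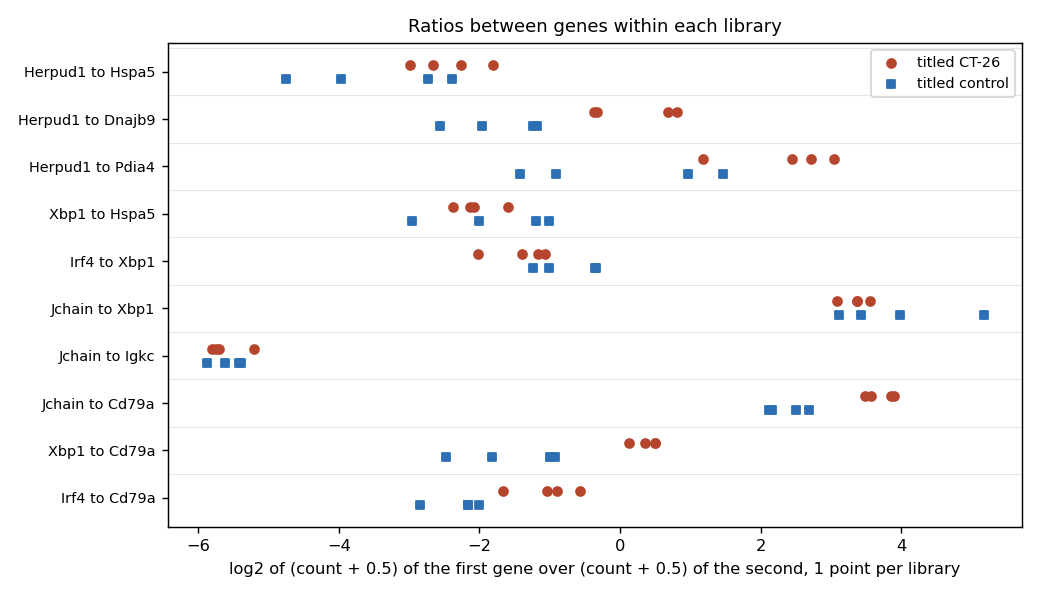
Log2 of the count ratio of 2 genes in the same library (horizontal axis, 0.5 added to each count) for 10 pairs, with 1 point per library: titled CT-26 as red circles (upper line of each pair) and titled control as blue squares (lower line). The sets stand apart for Herpud1 to Dnajb9 and for Jchain, Xbp1 and Irf4 to Cd79a, and lie on top of each other for Jchain to Igkc.

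Xbp1 and Herpud1 varied together between libraries of a set. After each set's mean was removed, their log2 levels had a Pearson r of 0.95 over the 8 libraries, the highest of the 21 pairs of tested genes, given as a description since libraries share depth and scaling. In the titled control set both were lowest in library 1 and highest in libraries 3 and 4, while in the titled CT-26 set both were highest in libraries 1 and 4. At a like level of Xbp1, Herpud1 was higher in titled CT-26. The log2 ratio of Herpud1 to Xbp1, looked at after the values had been seen and so not tested, was -0.20, -0.54, -0.61 and -0.19 in titled CT-26 libraries 1 to 4, against -1.79, -1.96, -1.72 and -1.20 in titled control libraries 1 to 4. Other pairs had r of -0.69 (Irf4 and Pdia4) to 0.73 (Hspa5 and Pdia4), and Jchain's r with the other 6 lay between -0.31 and 0.37.

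**Figure D4:**
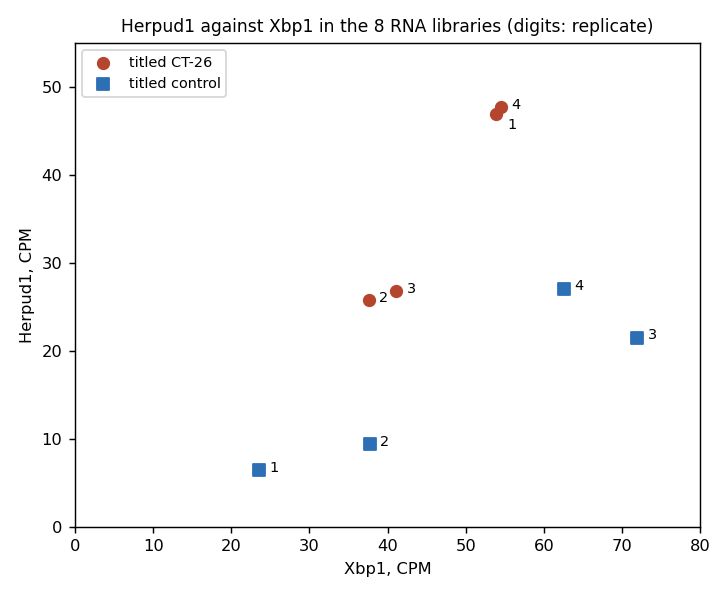
Herpud1 level against Xbp1 level, both in CPM, in the 4 titled CT-26 libraries (red circles) and the 4 titled control libraries (blue squares), with replicate numbers beside the points. Within each set the points rise together, and the titled CT-26 points lie above the titled control points of like Xbp1 level.

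Other plasma cell genes were mostly lower or did not pass. Of 19, 13 were tested by the same edgeR fit: 1 rose, 5 fell and 7 did not pass, with a median log2 fold change of -0.50. Tent5c, a poly(A) polymerase that stabilises immunoglobulin mRNA and is also active in red cell precursors, rose to 467 ± 97.5 CPM in titled CT-26, against 91.0 ± 27.0 CPM in titled control (SD, n = 4 each; log2 fold change 2.35). Slamf7, a surface receptor that natural killer cells also carry, fell to 7.47 ± 4.16 CPM in titled CT-26, against 33.3 ± 12.3 CPM in titled control (log2 fold change -2.11). Cd38 (-1.49), the survival receptor TACI encoded by Tnfrsf13b (-1.36), Cd28 (-1.89), known mainly from T cells, and Edem1 (-0.90), a mannosidase-like protein of ER quality control, fell too. Ell2, an elongation factor that favours secretory heavy chain mRNA, had a log2 fold change of 0.32, and Pou2af1, a B cell coactivator, of -0.50, and neither passed. Tnfrsf17, the gene of BCMA, averaged 0.184 CPM in titled CT-26 and 0.899 CPM in titled control and was below the filter. Also below the filter, Derl3 averaged 2.45 CPM in titled CT-26 and 11.3 CPM in titled control, and Fkbp11 had 0 counts in every library. Genes of this list are shared with other B cells, T cells and red cell precursors. B cell markers fell in 11 of 12 cases and T cell markers in 9 of 9, while erythroid markers rose in 9 of 10. The part of those cells was not tested. With library totals in place of TMM, 3 genes of the list were higher and 4 lower.

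Among ER folding genes more fell than rose, and among genes of ER-associated degradation more rose than fell, a contrast between lists that was not tested. Of 22 folding enzymes and chaperones, 17 were tested, 1 rose, 5 fell and 11 did not pass. The lectin chaperone Calr fell to 146 ± 33.5 CPM in titled CT-26, against 324 ± 122 CPM in titled control (SD, n = 4 each; log2 fold change -1.15). Hsp90b1 (GRP94, -0.90), the oxidase Ero1b (-1.60), the glucosyltransferase Uggt1 (-1.19) and Pdia6 (-0.74) fell as well, and Dnajb11, another cochaperone of BiP, rose (0.81). The median log2 fold change of this list was -0.21 with TMM and 0.15 with library totals (3 higher and 2 lower), below the median of all genes in both, at -0.02 and 0.35. Dnajb11 was not called with the lane as a factor, or when titled control 1, titled control 2 or titled CT-26 2 was left out. The call of Uggt1 ended in 4 of the 16 alternatives and that of Hsp90b1 in 1.

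Of 16 degradation genes, 14 were tested, 6 rose, 1 fell and 7 did not pass, with a median log2 fold change of 0.24. The lectin Erlec1 rose to 67.3 ± 5.29 CPM in titled CT-26, against 18.2 ± 5.09 CPM in titled control (SD, n = 4 each; log2 fold change 1.91). The segregase Vcp (1.13) with its cofactor Nploc4 (1.33), the conjugating enzyme Ube2j1 (0.86) and the channel protein Derl1 (0.74) rose with it. Edem3, a mannosidase, fell (-1.09). Between 4 and 7 of the list were higher under the 16 alternatives. The ligase Syvn1 (-0.18) and its partner Sel1l (0.02), the complex that Herpud1 joins, did not pass.

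Of 47 genes of ER entry and early secretion, 40 were tested, 7 rose, 7 fell and 26 did not pass. The cargo receptors Tmed10 (log2 fold change 1.42, 278 ± 16.6 CPM in titled CT-26 and 103.9 ± 17.4 CPM in titled control) and Tmed2 (1.33), and the translocon proteins Sec62 (1.06) and Ssr1 (1.0), were higher with the smallest p. Among the 7 lower genes, Spcs2 of the signal peptidase averaged 61.4 ± 22.1 CPM in titled CT-26 and 124 ± 21.7 CPM in titled control, and the translocon subunit Sec61b 21.7 ± 4.58 CPM in titled CT-26 and 48.6 ± 20.4 CPM in titled control (SD, n = 4 each; log2 fold change -1.15). With library totals 12 genes of the list were higher and 1 lower. The number lower was 3 without titled control 3 and 4 without titled CT-26 3 or 4. The median of this list was -0.12 with TMM and 0.27 with library totals, below that of all genes in both.

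Among stress sensors and genes of the PERK and ATF4 branch, 10 of 20 were tested, 4 rose, 2 fell and 4 did not pass, with a median log2 fold change of 0.56. Ppp1r15a (GADD34), which ends the translation block, rose to 215 ± 23.8 CPM in titled CT-26, against 21.0 ± 5.66 CPM in titled control (SD, n = 4 each; log2 fold change 3.34). Asns, the asparagine synthetase, rose by 3.10, Ddit4 by 1.27 and Ppp1r15b by 0.85 on the log2 scale. Atf6b fell to 11.0 ± 2.43 CPM in titled CT-26, against 45.0 ± 8.08 CPM in titled control (log2 fold change -2.04), and Creb3 fell by 1.01. With titled control 1 left out, 1 gene of the list was lower, not 2. Atf4 (0.34), Ddit3 (CHOP, 0.56), Eif2ak3 (PERK, 0.56) and Mbtps1 (0.22) did not pass, and Ern1 (IRE1) and Atf6 were below the filter.

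**Figure D5:**
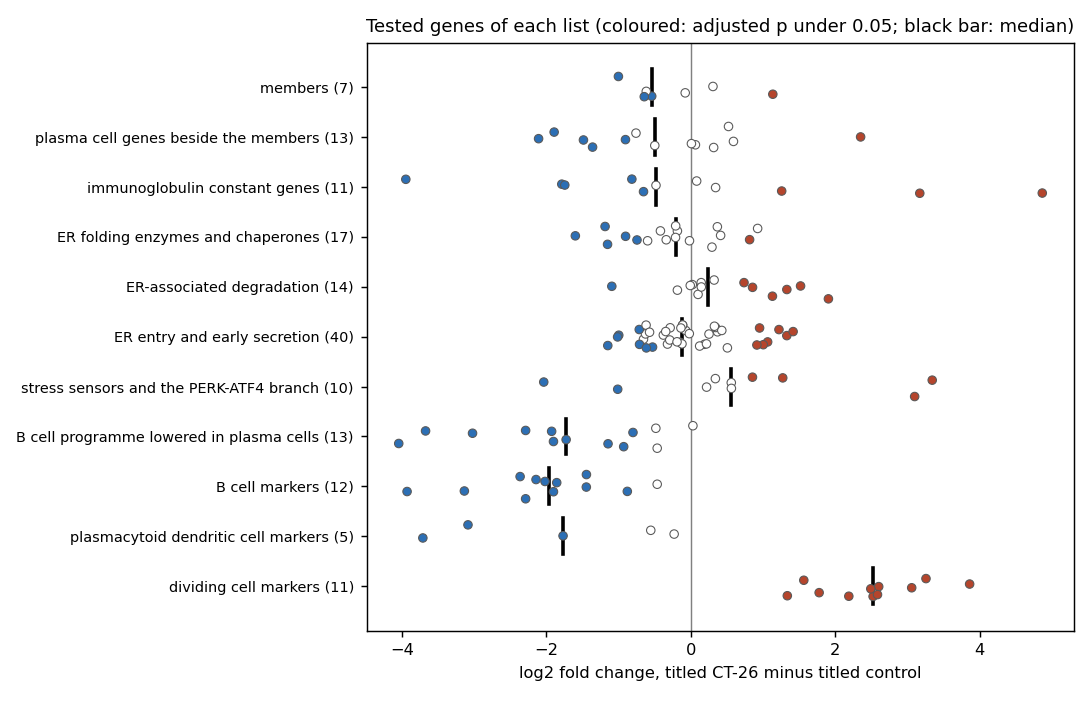
Log2 fold change, titled CT-26 minus titled control, of every tested gene (points) in each gene list (rows, with the number tested); coloured points have an adjusted p under 0.05 and black bars are medians. The median lies at 0.24 for ER-associated degradation and -0.21 for ER folding, against -1.96 for B cell markers and 2.52 for markers of dividing cells.

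Most genes that plasma cells switch off fell: of 16 genes of the B cell programme, which overlap the B cell markers, 13 were tested and 10 were lower, 0 higher (median log2 fold change -1.73). The immunoglobulin constant genes, which are the cargo of this machinery, split by class. Ighg1 rose to 172 ± 53.1 CPM in titled CT-26, against 19.7 ± 10.9 CPM in titled control (SD, n = 4 each; log2 fold change 3.17), and Ighg3 rose by 1.26. Ighe had 22, 23, 49 and 45 counts in titled CT-26 libraries 1 to 4 and 1, 0, 0 and 4 in titled control libraries 1 to 4, and was called higher. Ighd, the receptor class of naive B cells, fell to 28.6 ± 6.78 CPM in titled CT-26, against 442 ± 96.9 CPM in titled control (log2 fold change -3.94).

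Igha, the class whose dimers carry the joining chain, fell by 0.82 on the log2 scale, and the lambda genes fell as well, Iglc1 (-0.65), Iglc2 (-1.79) and Iglc3 (-1.74), where Iglc1 and Igha were not called with library totals. The call of Iglc1 ended in 3 of the 16 alternatives and that of Igha in 1. Ighm, the other polymeric class, averaged 5353 ± 1223 CPM in titled CT-26 and 5058 ± 1109.6 CPM in titled control (log2 fold change 0.08) and did not pass. Igkc, at 23620 ± 5256 CPM in titled CT-26 and 32972 ± 4649 CPM in titled control (log2 fold change -0.48), and Ighg2b (0.34) did not pass either. Ighg2c had 0 counts in every titled CT-26 library and 2, 1, 0 and 1 in titled control libraries 1 to 4. It was below the filter, as was Igll1, so the class of Ighg2c is missing from this split. In all 16 alternatives 3 constant genes were higher, and 3 to 5 were lower. Constant genes of near-identical sequence can share fragments, so values of single classes and of Iglc2 and Iglc3 are uncertain, and B cells with no secretion also carry constant-region mRNA.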

How the data were processed

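RNA libraries came from spleens, 4 titled CT-26 and 4 titled control, and the 16 receptor tables of the series were not used. The deposited tables hold raw counts per gene, which the authors made with featureCounts 2.0.1 in paired mode on GENCODE M29, per the file headers. No strand or multiple-overlap option stands in the headers. The submitters' processing notes name Trimmomatic 0.39, STAR 2.7.10a and the builds GRCm39 and GRCm38. The labels name a SMARTer kit for mouse T cell receptors for library construction. Totals were 735298 to 1970950 counts, and intervals cover counting error only.

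Genes were filtered by filterByExpr (minimum count 10), scaled by TMM and tested with edgeR 4.0.16 (quasi-likelihood, robust; R 4.3.3), with Benjamini-Hochberg adjustment over all 6408 genes tested and a threshold of 0.05. Code was tested on simulated data. Within-library ratios used the counts plus 0.5 and exact permutation (Python 3.11.15 with numpy 2.4.6). Alternatives were DESeq2 1.42.0, library totals, upper quartile scaling, no filter, no robust fit, mitochondrial genes left out, lane (from the file headers) as a factor, a replicate block and each library left out. Libraries were compared for duplicates and none was found. Ero1a and Ero1b were found under older symbols, and Ddit3 by its identifier with the most counts.

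The members and lists were chosen with earlier results of these data known. Named are all 10 members, up to 4 genes of smallest p per list, the immunoglobulin constant genes and, for each member with a mean log2 CPM of at least 5, the 3 most alike genes; 1 gene that this rule names is not reported here. Cd28, Edem1, Spcs2, Sec61b, Pdia6, Dnajb11, Edem3, Ube2j1, Derl1, Ppp1r15b, Creb3 and list genes named as not passing or below the filter were chosen after their values were seen.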

Additional observations from a re-analysis of the deposited data

Results flagged for a closer look

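The log2 ratio of Jchain to Igkc, the kappa light chain constant gene, was -5.21 in titled CT-26 4, apart from the other titled CT-26 libraries at -5.71, -5.81 and -5.75, while the titled control libraries lay between -5.88 and -5.40. Its gap to the nearest library was 0.835 of the range of its set, above Dixon's critical value for 4 samples. Among the 40 groups of 4 libraries checked it was the only one past that value, and chance flags about 1 in 20 groups.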

How the results depend on the processing

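Of 6408 genes, 1359 were higher and 1381 lower; over the 16 alternatives the number higher lay between 999 and 1936, and the number lower between 725 (library totals in place of TMM) and 1720. Of the 7 tested members, 1 was higher (2 with library totals, 1 in each of the other alternatives) and 3 were lower. The number lower was 0 with library totals, 0 with no filter, 0 with the lane as a factor, 1 by DESeq2 and between 0 and 2 with 1 library left out. The replicate numbers are not stated to pair the libraries. Deviations of same-numbered libraries correlated at -0.0865 to 0.0774, which shows no pairing but cannot exclude one. With the replicate block 1 member was lower, and 1340 genes were higher and 1328 lower. For the ratios, flipping signs over the 4 same-numbered pairs (replicate block) cannot give a p under 0.125, and leaving out 1 library cannot give one under 0.0571, so neither could pass 0.05. The log2 fold change of Xbp1 turned to 0.25 with library totals and 0.0043 with the replicate block, and lay between -0.28 and 0.16 with 1 library left out. That of Ighm lay between -0.065 and 0.19 with 1 library left out. Among ratios, the difference for Xbp1 to Hspa5 lay between -0.64 and 0.0066 with 1 library left out, and that for Jchain to Igkc between -0.18 and 0.024. Within lane 1 the difference was -1.09 for Xbp1 to Hspa5, -0.22 for Irf4 to Xbp1, 0.11 for Jchain to Xbp1 and 1.6 for Jchain to Cd79a. Within lane 2 it was 0.48 for Xbp1 to Hspa5, 0.89 for Jchain to Cd79a and 2.71 for Herpud1 to Dnajb9. The cause of these changes was not tested, and lanes 3 and 4 held 1 library each. Depth limits Sdc1, Prdm1 and Pdia4, with at most 25 counts in any library, and Herpud1, with 6 and 13 counts in titled control 1 and 2.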

Other observations

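Genes whose level followed a member most closely were found among 2778 genes with a mean log2 CPM of at least 5, by Pearson r over the 8 libraries after each set's mean was removed. They are a description, since the libraries share depth and scaling. For Jchain they were Fmnl1 (r 0.94), Wdr75 (0.92) and Ids (0.92). For Xbp1 they were Atxn7l3b (0.95), Xrn2 (0.94) and Elf1 (0.91), and Herpud1, whose mean level kept it out of this search, had an r of 0.95. For Hspa5 they were Rpl5 (0.95), Nup153 (0.94) and Srsf10 (0.93), and for Dnajb9 Kmt5a (0.96), Dedd2 (0.94) and Gm9843 (0.93).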
